A study of Mus musculus with 12 samples.

Results

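Conjugation is the step of liver detoxification that attaches a water-soluble group to drugs, hormones, pigments and microbial products, and 3 gene families that carry it out were described in germ-free and colonized mouse liver. Glutathione S-transferases (Gst genes) join the tripeptide glutathione to reactive electrophiles, and several also bind hydrophobic ligands. UDP-glucuronosyltransferases (Ugt genes) sit in the endoplasmic reticulum and transfer glucuronic acid from UDP-glucuronic acid to bilirubin, steroids, phenols and drugs. Cytosolic sulfotransferases (Sult genes) transfer sulfate from the donor PAPS to phenols, catecholamines, steroids and bile acids. Hepatocytes are the main liver site of all 3 families, and several members are known to differ between male and female mouse liver.

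The members were the 63 of the 41128 genes in the table whose symbol begins with Gst and a class letter (a, k, m, o, p, t or z) and number, with Ugt and a number, or with Sult and a number, pseudogenes left out. They comprised 22 Gst, 20 Ugt and 21 Sult genes. Of these, 45 reached a mean normalised value of 10 over the 12 libraries and were tested: 19 Gst, 16 Ugt and 10 Sult genes. Most of the family members lie side by side in the genome: 53 of the 63 fell into 11 clusters with at most 200000 bases from one member to the next (GENCODE annotation of GRCm38).

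Liver RNA came from 12 C57BL/6 mice that lived in sterile isolators up to weaning on day 21 and were killed when 6 weeks old. 6 of them were germ-free (GF) and never left the isolators, and the other 6 were conventionalized (CV) by 3 weeks in cages that held used bedding from other mice of the facility. Each condition held 3 mice labelled male and 3 labelled female, with 1 library per mouse, and nothing is said of litters or of which mice shared a cage, so p-values measure the spread between these mice. All 4 groups share the strain, the age and the isolator period, and the bedding brought an undefined microbial community.

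The library labelled CV male 3 did not carry the marker genes of its label. It had an Xist value of 2382 and 0 reads from Y-linked genes, whereas the other 5 libraries labelled male had Xist values of 4.68 to 21.3 and 796 to 1314 such reads. Counts of called members between the conditions and sexes are therefore given with and without it, and the change of a member described singly is given without it where leaving it out altered a call or moved the value by over 1.5 times. Recovered reads ranged from 5993619 to 10975691 in GF and from 8890529 to 15290835 in CV libraries. 8 abundant loci, among them both mitochondrial ribosomal RNA genes, Lars2 and Malat1, took 42.7% to 70.3% of the reads of GF and 5.41% to 22.1% of those of CV libraries. Mitochondrial ribosomal RNA alone took 9.36% to 16.4% and 1.39% to 6.32%. CV males 2 and 3 made up the high end of the CV ranges, with 21.6% and 22.1% for the abundant loci and 5.89% and 6.32% for mitochondrial ribosomal RNA. The other CV libraries had 5.41% to 7.99% and 1.39% to 1.81%. All 8 hepatocyte markers examined were detected, and their summed value had a median of 234665 (100823 to 437863) in GF and 473402 (357570 to 590072) in CV libraries. The sums of 7 endothelial and 7 lymphocyte markers went the other way, with medians of 2269 and 389 in GF and of 1258 and 110.3 in CV libraries. 7 Kupffer and myeloid markers had medians of 1134 and 1933, and 7 stellate cell markers of 1831 and 2583. 7 bile duct markers had medians of 890 in GF and 737 in CV libraries. Blood markers had a median of 7488 in GF and 2351 in CV libraries. Sums weigh abundant markers most, and not every marker followed the sum of its list. Among the exceptions, the hepatocyte markers Cps1 and Tat and the stellate cell markers Reln and Rgs5 had lower medians in CV libraries. The endothelial markers Clec4g and Lyve1 had higher ones. The sum of 7 small intestine markers ran from 147.6 to 779 in GF and from 731 to 1301 in CV libraries. Nearly all of it was Fabp2, at 136 to 775 in GF and 730 to 1300 in CV libraries. Of the 7 markers, 3 read 0 in every library, as did 3 of 5 kidney markers, and the kidney sums stayed at or under 15.6. The part of these differences in the results was not tested, and in bulk tissue fewer cells of a type and less RNA per cell cannot be told apart.

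Promoter sequences are shown for the genes on which the contrasts turn. The Ugt1a genes each have a first exon and promoter of their own and share their remaining exons, so their transcripts differ in the first exon and in the sequence before it. Gsta3 is shown as a member whose sequence before the start held an antioxidant response core, and Sult3a1 as the member with the widest gap between the sexes. Each line gives the 250 bases before the annotated start, 5′ to 3′ on the strand of the gene (RefSeq, GRCm38.p6), and capitals mark matches to the motifs named after the sequences, on either strand.
Ugt1a9 (chr1:88070529-88070778, + strand): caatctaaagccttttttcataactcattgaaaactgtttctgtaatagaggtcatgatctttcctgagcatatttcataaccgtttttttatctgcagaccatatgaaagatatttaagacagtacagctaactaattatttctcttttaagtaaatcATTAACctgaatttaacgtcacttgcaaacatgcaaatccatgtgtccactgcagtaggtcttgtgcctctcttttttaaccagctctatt
Ugt1a7c (chr1:88094751-88095000, + strand): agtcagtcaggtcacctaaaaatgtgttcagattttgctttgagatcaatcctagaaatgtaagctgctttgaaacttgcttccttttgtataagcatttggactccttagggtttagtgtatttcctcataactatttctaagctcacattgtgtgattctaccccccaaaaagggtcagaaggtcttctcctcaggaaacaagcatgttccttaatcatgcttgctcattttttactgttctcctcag
Ugt1a6a (chr1:88134559-88134808, + strand): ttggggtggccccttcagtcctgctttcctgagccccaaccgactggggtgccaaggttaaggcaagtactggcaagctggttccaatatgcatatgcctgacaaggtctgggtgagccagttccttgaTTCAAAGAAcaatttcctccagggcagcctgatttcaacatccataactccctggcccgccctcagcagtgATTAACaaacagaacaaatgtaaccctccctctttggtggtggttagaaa
Ugt1a5 (chr1:88165762-88166011, + strand): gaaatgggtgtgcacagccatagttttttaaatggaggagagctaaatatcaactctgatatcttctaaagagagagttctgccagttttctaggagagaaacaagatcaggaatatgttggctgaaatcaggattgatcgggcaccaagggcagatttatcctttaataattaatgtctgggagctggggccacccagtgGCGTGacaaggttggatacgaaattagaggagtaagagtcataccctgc
Ugt1a1 (chr1:88211709-88211958, + strand): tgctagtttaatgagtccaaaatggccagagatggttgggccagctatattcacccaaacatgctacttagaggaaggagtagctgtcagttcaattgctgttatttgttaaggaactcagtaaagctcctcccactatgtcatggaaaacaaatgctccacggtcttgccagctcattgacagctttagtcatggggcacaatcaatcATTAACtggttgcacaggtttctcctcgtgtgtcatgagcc
Gsta3 (chr1:21240335-21240584, + strand): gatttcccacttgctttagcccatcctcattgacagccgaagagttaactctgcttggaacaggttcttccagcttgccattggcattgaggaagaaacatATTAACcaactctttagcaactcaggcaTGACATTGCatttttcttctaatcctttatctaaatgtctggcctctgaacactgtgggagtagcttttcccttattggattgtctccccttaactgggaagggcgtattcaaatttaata
Sult3a1 (chr10:33857472-33857721, + strand): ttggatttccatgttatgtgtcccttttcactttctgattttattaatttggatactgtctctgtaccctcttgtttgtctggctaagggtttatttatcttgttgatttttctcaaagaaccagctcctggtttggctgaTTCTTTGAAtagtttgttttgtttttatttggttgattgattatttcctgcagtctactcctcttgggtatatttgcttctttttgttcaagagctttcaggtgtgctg

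5 short motifs were searched on both strands of the 250 bases before each annotated start of a gene, for the 38 tested members with a sequence in the table (55 of all 63 had one) and for all 32851 promoters in it. The antioxidant response core TGACNNNGC, the letters bound by NRF2 with small MAF proteins, was present in 10.2% of all promoters and in 3 of 17 Gst genes (Gsta3, Gstm5 and Gstm7), and in 0 of 14 Ugt and 0 of 7 Sult genes. The xenobiotic response core GCGTG of the aryl hydrocarbon receptor stood in 28.2% of all promoters, in 5 Gst genes, in Ugt1a5 alone among the Ugt genes, and in Sult1b1 and Sult1d1. The HNF1 core GTTAAT stood in 6.43% of all promoters and in 5 of 14 Ugt genes, namely Ugt1a1, Ugt1a6a, Ugt1a9, Ugt2a3 and Ugt3a1, against 1 Gst and 2 Sult genes. The STAT5 motif TTCNNNGAA stood in 7.02% of all promoters and in Gstm6, Ugt1a6a and Sult3a1. TATAAA stood in 12.4% of all promoters and in 3 Gst genes, 1 Ugt gene and 1 Sult gene. Of the 5 Ugt1a promoters printed, that of Ugt1a7c held none of the 5 motifs. These matches describe letters in a window and do not locate bound factors.

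Colonized livers carried more transcript of most Gst and Ugt genes than germ-free livers, while fewer Sult genes passed, 4 of 10 higher and 0 lower. Over both sexes, 34 of the 45 tested members were higher in CV livers and 2 were lower at an adjusted p under 0.05. Among all 11782 genes tested, 61.1% passed this test, 32.3% higher and 28.7% lower, so a call by itself was common. The median log2 change of the members was 1.32, against 0.075 over all tested genes. By family, 18 of 19 Gst genes rose (median change 1.40), 12 of 16 Ugt genes rose and 2 fell (median 1.31), and 4 of 10 Sult genes rose (median 0.73), a share near that of all genes. All 19 Gst genes had positive changes under every scaling of the libraries tried, but Ugt2b1, Sult1a1 and Sult1d1, none of them called, turned from positive to negative when libraries were scaled to the reads outside the 8 abundant loci.

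**Figure D1:**
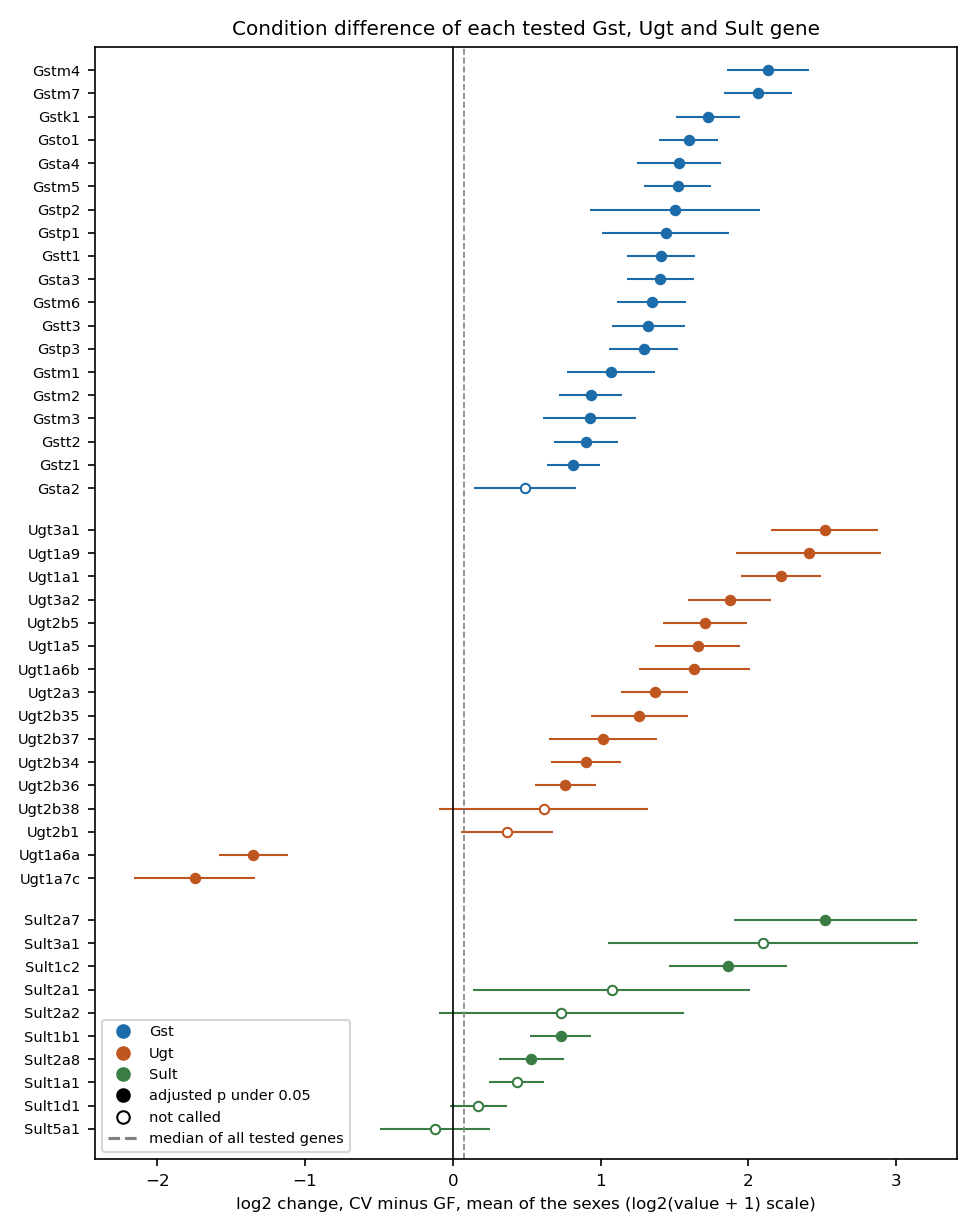
The horizontal axis is the log2 change from GF to CV livers, as the mean of the sexes, for each of the 45 tested genes (vertical axis, grouped by family), with bars of 1 SE from the fit and filled points for adjusted p under 0.05. 18 of 19 Gst genes lie right of 0 with filled points, Ugt1a6a and Ugt1a7c lie left of 0, and Sult5a1 is the other gene left of 0, with an open point. With libraries scaled to the reads outside the abundant loci, Ugt2b1, Sult1a1 and Sult1d1 also lie left of 0.

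The calls depended on how 2 properties of the libraries and transcripts were treated. With the share of mitochondrial ribosomal RNA as a covariate, 0 of the 45 members and 0 of all 11782 genes were called by limma, with 9 members and 1985 genes at an unadjusted p under 0.05. That share did not overlap between GF (9.36% to 16.4%) and CV libraries (1.39% to 6.32%), so this fit cannot separate it from condition. The members' transcripts were short, with a median of 1888 bases (Gst 1182, Ugt 2234, Sult 1608) against 3351 over all tested genes, and once a trend with transcript length and GC content had been taken out of each library 13 Gst genes rose, 12 Ugt genes rose and 2 fell, and 5 Sult genes rose, while 32.8% of all genes were called higher and 24.0% lower. The Gst median was 0.84 after that correction. With the ribosomal RNA covariate 15 of the 45 changes were negative in place of 3, with a median of 0.73 for the Gst, -0.41 for the Ugt and 0.95 for the Sult genes, and 10 of 16 Ugt changes were negative.

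The mu class of glutathione transferases, a run of 7 genes on chromosome 3 between 107895821 and 108044894, had all 7 higher in CV livers over both sexes, with changes of 0.93 to 2.13. In males 3 of the 7 passed, and with the length and GC trend removed 4 did over both sexes (Gstm4, Gstm5, Gstm6 and Gstm7). Gstm4 read 150.4, 193 and 188 in the 3 GF males, 87.6, 157 and 59.4 in the 3 GF females, 1007, 432 and 272 in the 3 CV males and 638, 729 and 605 in the 3 CV females. Every CV library lay above every GF library, and the change was 2.13 ± 0.28 (SE, adjusted p = 1.04e-05), a 4.39-fold rise. Gstm7 read 124, 189 and 149 in the 3 GF males, 60.4, 136 and 67.1 in the 3 GF females, 675, 333 and 353 in the 3 CV males and 498, 598 and 459 in the 3 CV females. Here too the conditions did not overlap in either sex, with a change of 2.07 ± 0.23 (SE, adjusted p = 2.91e-06).

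Gstm1 is the most abundant transcript of the 3 families, with 10061 normalised units per kilobase of exon averaged over the libraries. Gstm1 read 9502, 20247 and 10599 in the 3 GF males, 5958, 11132 and 4050.2 in the 3 GF females, 25865, 18805 and 15506 in the 3 CV males and 22007, 19883 and 14292 in the 3 CV females. The females of the conditions did not overlap, whereas GF male 2 lay above CV males 2 and 3. The change was 1.07 ± 0.30 (SE, adjusted p = 0.00538). Gstm1 made up 36.3% to 52.0% of the summed value of all Gst genes in GF libraries and 36.1% to 48.8% in CV libraries, so its share of the family overlapped between conditions while the sum itself ran from 11164 to 45170 in GF and from 34956 to 68286 in CV libraries. With the length and GC trend removed, the change of Gstm1 was 0.45 and was not called.

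Genes of the kappa, omega and zeta classes rose as well. Gstk1, the kappa enzyme of mitochondria and peroxisomes, lies on chromosome 6. Gstk1 read 447, 693 and 642 in the 3 GF males, 140.4, 378 and 272 in the 3 GF females, 1347, 1147 and 1436 in the 3 CV males and 1103, 1370.4 and 1150.0 in the 3 CV females. No CV library overlapped a GF library of either sex, and the change was 1.73 ± 0.22 (SE, adjusted p = 7.49e-06). Gsto1, the omega enzyme that reduces dehydroascorbate and arsenic compounds, lies on chromosome 19. Gsto1 read 381, 544 and 359 in the 3 GF males, 219, 412 and 213 in the 3 GF females, 967, 743 and 1170.2 in the 3 CV males and 1049, 1089 and 1148 in the 3 CV females. Its lowest CV library was above its highest GF library, with a change of 1.60 ± 0.20 (SE, adjusted p = 6.95e-06). Gstz1, which isomerizes maleylacetoacetate in tyrosine breakdown, rose by 0.82 ± 0.18 (SE, adjusted p = 0.000913), and it shares exon sequence on the opposite strand with Pomt2.

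The theta genes Gstt1, Gstt2 and Gstt3, neighbours on chromosome 10, all rose. Gstt1 read 1176, 2192 and 1397 in the 3 GF males, 809, 1516 and 621 in the 3 GF females, 3184, 2484 and 3788 in the 3 CV males and 2825, 3589 and 3183 in the 3 CV females. The lowest CV library exceeded the highest GF library for Gstt1, whose change was 1.41 ± 0.23 (SE, adjusted p = 8.36e-05). Gstt2 changed by 0.90 ± 0.22 (SE, adjusted p = 0.00192) and Gstt3 by 1.32 ± 0.25 (SE, adjusted p = 0.000237), and part of the Gstt3 exons is shared with Gm20441 on the same strand.

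Of the alpha class, Gsta3 rose by 1.40 ± 0.23 (SE, adjusted p = 6.61e-05), and its values of 957 to 2919.8 in GF and 3761 to 7695 in CV libraries did not overlap. Gsta4, which conjugates the lipid peroxidation product 4-hydroxynonenal, rose by 1.53 ± 0.29 (SE, adjusted p = 0.000239). Gsta2 was the 1 Gst gene that did not pass, with 12.1 to 67.9 in GF and 18.1 to 106 in CV libraries and a change of 0.49 ± 0.35 (SE, adjusted p = 0.232).

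The pi class occupies a small stretch of chromosome 19, and its 3 genes passed the test over both sexes. Gstp1 read 3196, 11253 and 6492 in the 3 GF males, 510.2, 1019 and 324 in the 3 GF females, 15908, 13478 and 2338 in the 3 CV males and 3661, 3309.7 and 2605 in the 3 CV females. The CV females lay above the GF females, but the 3 CV males spanned a wider range than the 3 GF males, and the change of 1.44 ± 0.43 (SE, adjusted p = 0.00831) came with a male value of 0.37 and a female value of 2.51. Without the library labelled CV male 3, the change of Gstp1 over both sexes was 1.88. Gstp2 read at most 50.9 in any library and changed by 1.50 ± 0.57 (SE, adjusted p = 0.0321). Gstp3 changed by 1.29 ± 0.23 (SE, adjusted p = 0.000194). How reads that match several of these close copies were handled is not given in the sources used here. Values of single Gstm, Gstp, Ugt2b and Sult2a genes carry that uncertainty.

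**Figure D2:**
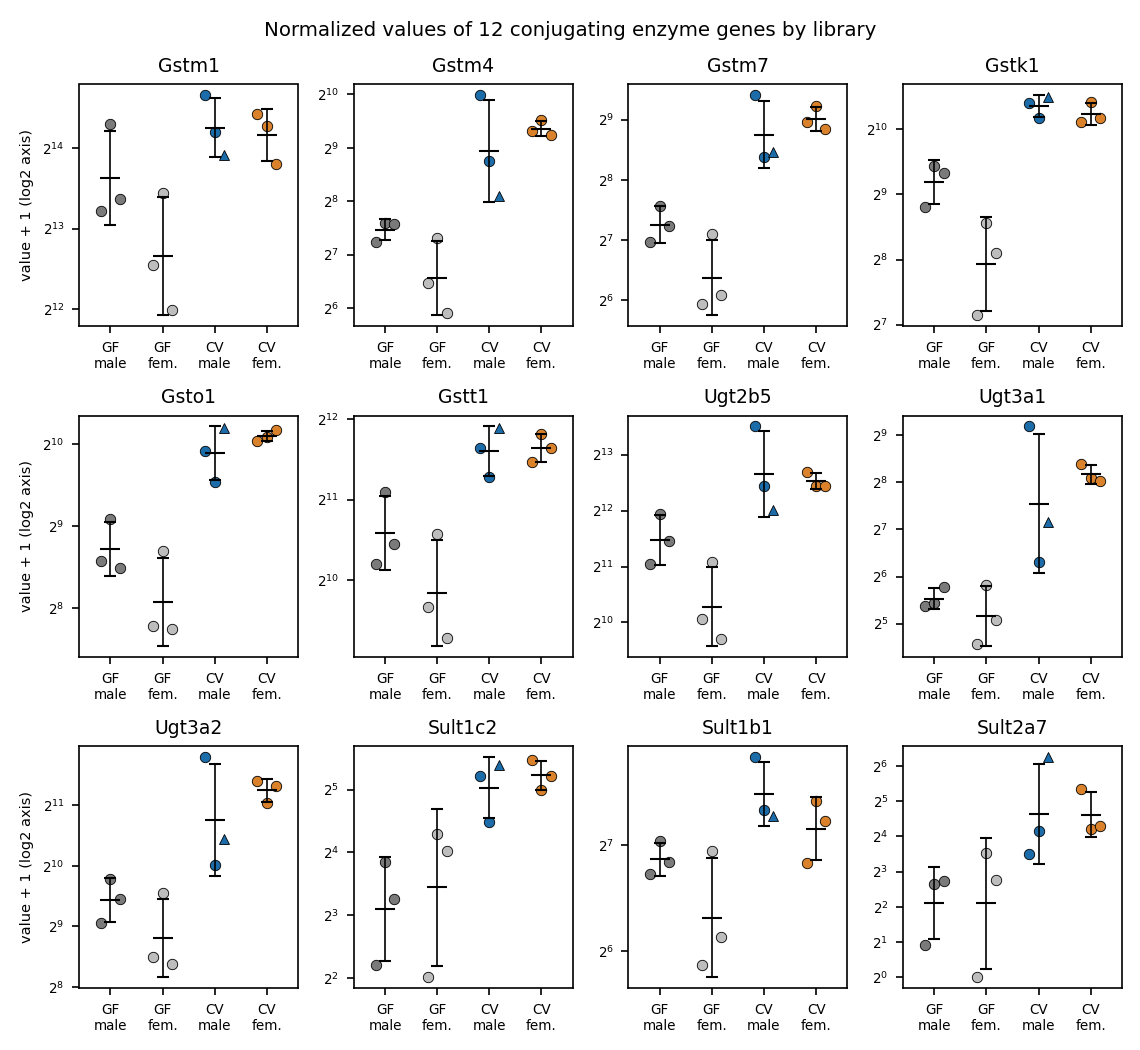
The vertical axis is the normalised value plus 1 on a log2 axis for 12 members in the 4 groups, with 1 point per mouse, triangles for the library labelled CV male 3, and bars for the mean and SD of the log2 values of 3 mice. For Gstm4, Gstm7, Gstk1, Gsto1, Gstt1, Ugt2b5, Ugt3a1, Ugt3a2 and Sult1c2 every CV library lies above every GF library.

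The Ugt1a locus gave changes in opposite directions. Its genes span 88055388 to 88220002 of chromosome 1, and 4 of the 6 tested rose while 2 fell. Ugt1a1 read 77.9, 71.9 and 59.5 in the 3 GF males, 81.5, 101 and 119 in the 3 GF females, 620.4, 161 and 186 in the 3 CV males and 702, 467 and 582 in the 3 CV females. Ugt1a1, the bilirubin-conjugating enzyme, lay higher in every CV library than in every GF library and rose by 2.22 ± 0.27 (SE, adjusted p = 5.75e-06), a 4.67-fold difference. CV male 1 stood well above CV males 2 and 3.

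Ugt1a9, near the upstream end of the locus and active on bulky phenols, had the largest rise of the locus. Ugt1a9 read 9.85, 10.6 and 15.6 in the 3 GF males, 6.04, 18.6 and 17.3 in the 3 GF females, 215, 19.1 and 18.2 in the 3 CV males and 158, 98.1 and 89.1 in the 3 CV females. The change was 2.41 ± 0.49 (SE, adjusted p = 0.0005), and the highest GF library, at 18.6, lay just above CV male 3. Ugt1a6b ranged from 20.6 to 55.9 in GF and from 43.6 to 315 in CV libraries and rose by 1.64 ± 0.37 (SE, adjusted p = 0.00131).

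Ugt1a6a, which acts on simple planar phenols, went down. Ugt1a6a read 157, 83.8 and 143 in the 3 GF males, 140.4, 146 and 232 in the 3 GF females, 40.6, 103 and 60.9 in the 3 CV males and 51.7, 50.4 and 46.4 in the 3 CV females. All 3 CV females lay below all 3 GF females, while CV male 2 lay above GF male 2. The change was -1.35 ± 0.24 (SE, adjusted p = 0.000143), so the value was 2.55-fold lower in CV livers. Ugt1a7c read 14.3, 9.32 and 24.1 in the 3 GF males, 24.2, 29.3 and 44.1 in the 3 GF females, 5.72, 11.1 and 14.5 in the 3 CV males and 8.41, 1.34 and 2.41 in the 3 CV females. Ugt1a7c, a scarce member in this tissue, was 3.36-fold lower, with a change of -1.75 ± 0.41 (SE, adjusted p = 0.00156). Its values of 1.34 and 2.41 in CV females 2 and 3 rest on few reads. Ugt1a7c passed the filter on the mean value only through its GF libraries, so its entry to the test was not independent of its change.

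The shared exons limit how far the Ugt1a values can be assigned to single genes. Sequence that no other annotated gene holds on that strand made up 2142 of 4312 exon bases in Ugt1a6a and 1915 of 4219 in Ugt1a7c. In Ugt1a1 it was 913 of 2224 and in Ugt1a9 879 of 2190. The setting used for reads in shared exons is not given in the sources used here. Ugt1a6a and Ugt1a7c kept negative changes and their calls under each scaling, and both were called lower with the length and GC trend removed.

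**Figure D3:**
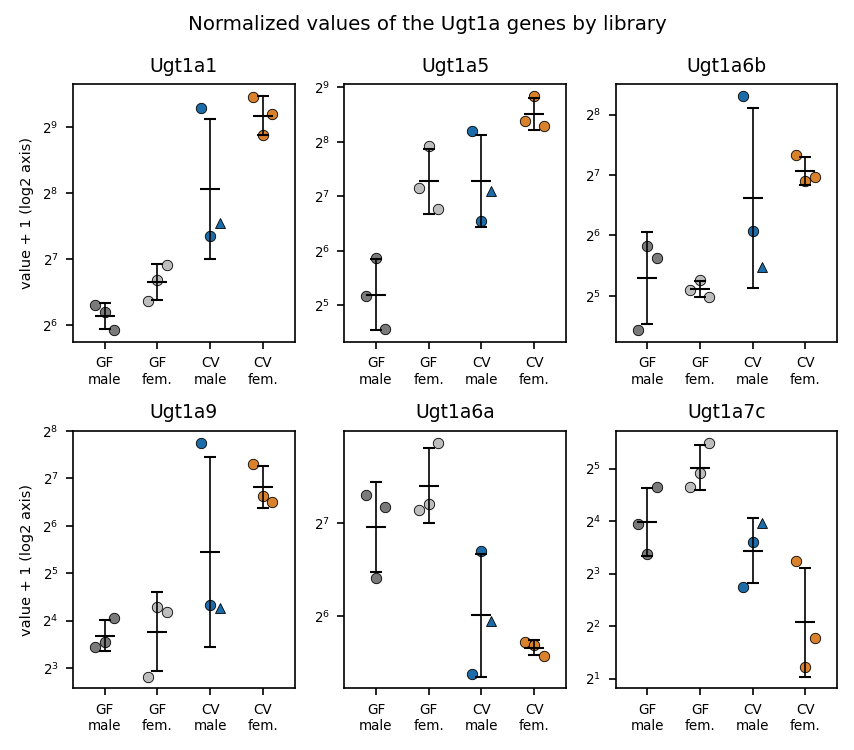
The vertical axis is the normalised value plus 1 on a log2 axis for the 6 tested Ugt1a genes in the 4 groups, 1 point per mouse, with the library labelled CV male 3 as a triangle and bars for the mean and SD of the log2 values of 3 mice. Ugt1a1 lies above the GF libraries in all 6 CV libraries, and Ugt1a6a and Ugt1a7c lie below the GF females in all 3 CV females.

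The Ugt2 genes, which handle steroids, bile acids and drugs, form 1 cluster on chromosome 5, and 6 of 8 rose with none lower. Ugt2b5 read 2113, 3915 and 2814 in the 3 GF males, 1066, 2157 and 838 in the 3 GF females, 11609.7, 5528 and 4141 in the 3 CV males and 6604, 5551 and 5587 in the 3 CV females. Ugt2b5 had the highest level per kilobase of the Ugt genes (2329), and no GF library reached its lowest CV library, with a change of 1.71 ± 0.28 (SE, adjusted p = 8.33e-05). Ugt2b36 read 2467, 3234 and 2871 in the 3 GF males, 1413, 2139 and 1706 in the 3 GF females, 6398, 3621 and 3277 in the 3 CV males and 3733, 3382 and 2911 in the 3 CV females. Ugt2b36 came next in level (1504 per kilobase) and rose by 0.76 ± 0.21 (SE, adjusted p = 0.00461), with CV male 1 far above the other CV libraries.

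Ugt2a3, Ugt2b34, Ugt2b35 and Ugt2b37 rose by 0.90 to 1.37. Ugt2b1 and Ugt2b38 did not pass over both sexes, with changes of 0.36 ± 0.31 (SE, adjusted p = 0.321) and 0.61 ± 0.70 (SE, adjusted p = 0.462). Without the library labelled CV male 3, Ugt2b1 was called higher over both sexes (0.68, adjusted p = 0.0232) and in females (0.88, adjusted p = 0.0287), the call of Ugt2b37 was lost (0.76, adjusted p = 0.0687), and Ugt2b38 changed by 1.12 (adjusted p = 0.147). The summed value of all Ugt genes ran from 4755 to 14683 in GF and from 13473 to 33468 in CV libraries, so the highest GF library lay above the lowest CV library, which was the one labelled CV male 3.

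Both Ugt3 genes on chromosome 15, relatives that use other UDP-sugars as donors, rose. Ugt3a1 read 40.3, 42.6 and 53.9 in the 3 GF males, 22.6, 55.9 and 32.6 in the 3 GF females, 582, 77.9 and 142 in the 3 CV males and 336, 270.0 and 261 in the 3 CV females. The change of Ugt3a1 was 2.52 ± 0.36 (SE, adjusted p = 2.41e-05), the largest of the 16 Ugt genes, and no CV library reached down to a GF library. Ugt3a2 read 533, 884 and 701 in the 3 GF males, 359, 750.1 and 332 in the 3 GF females, 3525, 1036 and 1391 in the 3 CV males and 2679, 2095 and 2532 in the 3 CV females. Ugt3a2 changed by 1.87 ± 0.28 (SE, adjusted p = 3.43e-05), again without overlap.

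Among the sulfotransferases, 4 of 10 tested genes rose and 6 did not pass. The most abundant per kilobase was Sult1a1, the main enzyme for simple phenols (1422 per kilobase). Sult1a1 read 2446, 1606 and 1431 in the 3 GF males, 1985, 1551 and 1969 in the 3 GF females, 2429, 1815 and 2419 in the 3 CV males and 2431, 2959.8 and 2673 in the 3 CV females. The CV females lay above the GF females while the males overlapped, and the change of 0.43 ± 0.19 (SE, adjusted p = 0.0551) did not pass. It was -0.06 with libraries scaled to the reads outside the abundant loci and -0.05 with the length and GC trend removed.

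Sult1d1, which acts on catecholamines, also did not pass. Sult1d1 read 463, 523 and 427 in the 3 GF males, 560.0, 817 and 500.3 in the 3 GF females, 594, 491 and 975 in the 3 CV males and 556, 602 and 512 in the 3 CV females. The conditions overlapped in both sexes, and the change was 0.17 ± 0.19 (SE, adjusted p = 0.444). It was -0.31 with the scaling to reads outside the abundant loci and 0.032 without CV male 3. Sult1d1 was called in opposite directions by alternatives: higher over both sexes and in males after correction for transcript length and GC content, and lower in females under that scaling. Sult1b1, its neighbour on chromosome 5 and an enzyme of thyroid hormone sulfation, did rise. Sult1b1 read 105, 130.4 and 113 in the 3 GF males, 57.4, 122 and 69.0 in the 3 GF females, 226, 161 and 154 in the 3 CV males and 113, 170.0 and 149 in the 3 CV females. The male groups did not overlap, CV female 1 lay below GF female 2, and the change was 0.73 ± 0.20 (SE, adjusted p = 0.00563).

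Sult1c2 and Sult2a7 had the smallest p-values of the family at low levels. Sult1c2 read 3.58, 13.3 and 8.50 in the 3 GF males, 3.02, 18.6 and 15.3 in the 3 GF females, 36.4, 21.5 and 40.9 in the 3 CV males and 43.3, 30.9 and 36.1 in the 3 CV females. All CV libraries of Sult1c2 lay above all GF libraries, with a change of 1.86 ± 0.40 (SE, adjusted p = 0.000804). Sult2a7 read 0.895, 5.32 and 5.67 in the 3 GF males, 0, 10.6 and 5.75 in the 3 GF females, 10.4, 16.7 and 74.5 in the 3 CV males and 39.5, 17.5 and 18.7 in the 3 CV females. The change of Sult2a7 was 2.52 ± 0.62 (SE, adjusted p = 0.00219), and within each sex every CV library was above every GF library. Its values of 0 to 10.6 in GF libraries rest on few reads. Sult2a7 passed the filter of a mean of 10 only through its CV libraries, so its entry to the test was not independent of its change.

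Sult2a8, a liver sulfotransferase of hydroxysteroids and bile acids and the second most abundant per kilobase (839), passed by a small margin. Sult2a8 read 3109.9, 3905 and 3136 in the 3 GF males, 1051, 1806 and 979 in the 3 GF females, 5531, 4412 and 2702 in the 3 CV males and 1893, 2395 and 2163 in the 3 CV females. The change was 0.53 ± 0.22 (SE, adjusted p = 0.044), with the female groups apart and the male groups overlapping. Its call was lost in 16 of 28 alternatives, whose changes ran from 0.039 to 1.09 over all 28. Those 16 included edgeR with a filter, voom, scaling to the reads outside the abundant loci, and leaving out GF male 1 or 3, GF female 1 or 3, CV male 1 or 2 or any CV female. Scaling to the reads outside the abundant loci left 2 Sult genes called, Sult1c2 and Sult2a7 (59.7% of all genes called). edgeR with TMM factors called 7 (60.8% of all genes called), without Sult2a8 and with Sult2a1, Sult2a2, Sult3a1 and Sult3a2. For each of those added, the CV male reads lay wholly or almost wholly in the library labelled CV male 3. Sult5a1, whose substrates are little known, had 93.1 to 269.5 in GF and 84.5 to 458 in CV libraries and a change of -0.12 ± 0.37 (SE, adjusted p = 0.791), or -0.06 without CV male 3. The Sult sum ran from 3979 to 6408 in GF and from 5514 to 9289 in CV libraries.

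Within the sexes, fewer members passed in males than in females. In males 18 of 45 members were higher and 1, Ugt1a6a, was lower in CV livers, where 29.5% of all tested genes were called, 14.1% higher and 15.4% lower. Those higher were 10 Gst, 6 Ugt and 2 Sult genes. In females 34 were higher and 2 lower, where 55.8% of all genes were called, 29.8% higher and 26.0% lower, and these were 18 Gst, 12 Ugt and 4 Sult genes higher with Ugt1a6a and Ugt1a7c lower. Without the library labelled CV male 3, 16 members were higher and 0 lower in males (25.3% of all genes called), 36 were higher and 2 lower in females (56.2%), and 34 were higher and 2 lower over both sexes (60.3%). The male count also fell to 10 without CV male 1 (18.5% of all genes called), to 7 without GF male 1 (13.6%) and to 12 without GF male 3 (18.1%). Without CV male 3 the male calls of Gsta4, Gstp3, Gstt1, Sult1c2, Sult2a7 and Ugt1a6a were lost and those of Ugt1a6b, Ugt1a9 and Ugt2b35 gained. Over both sexes, leaving out 1 library cost the call of Sult2a8 in 9 of 12 cases, of Gstp2 in 7, of Ugt2b37 in 4 and of Gstm3 in 2, and brought calls of Sult1a1 and Sult3a1 in 2 cases each and of Ugt2b1 in 1.

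Overlap of the groups was also counted. In females the 3 CV values all exceeded the 3 GF values for 34 of 45 members, against 34.0% of all tested genes, and all lay below them for 2, against 31.0%. In males the CV values all lay above for 23 of 45, against 22.0% of all genes, and below for 0, against 21.1%. Taking CV males 1 and 2 only, 29 of 45 members lay above the GF males, against 26.3% of all genes. Across both sexes, the 6 CV values all exceeded the 6 GF values for 16 members (10 Gst, 5 Ugt, 1 Sult), against 15.6% of all genes.

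The sizes of the changes were smaller in males for 37 of the 45 members, namely 18 Gst, 15 Ugt and 4 Sult genes, as they were for 77.0% of all tested genes, and without the library labelled CV male 3 for 40 of 45 members and 75.5% of all genes. CV males 2 and 3 had larger shares of the abundant loci (21.6% and 22.1%) than the other CV libraries (5.41% to 7.99%). The part of this in the smaller changes and fewer calls in males was not tested. Gstm6 changed by 0.59 ± 0.33 (SE, adjusted p = 0.187) in males and 2.10 ± 0.33 (SE, adjusted p = 8.56e-05) in females. Gstp1 changed by 0.37 ± 0.61 (SE, adjusted p = 0.674) in males and 2.51 ± 0.61 (SE, adjusted p = 0.00237) in females. Ugt1a7c changed by -0.55 ± 0.58 (SE, adjusted p = 0.496) in males and -2.94 ± 0.58 (SE, adjusted p = 0.000518) in females. Without CV male 3 the male change of Gstp1 was 1.25 (adjusted p = 0.066), that of Gstm6 0.80 (adjusted p = 0.11) and that of Ugt1a7c -0.81 (adjusted p = 0.374). The reverse order held for Ugt1a5, with 2.09 in males and 1.23 in females, and the male value was 2.18 without CV male 3.

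The test of the difference between the sexes called 0 of 45 members and 0.0% of all 11782 genes by limma. At an unadjusted p under 0.05 it marked 8 members and 11.7% of all genes, and the lowest adjusted p among the members was 0.417. edgeR without a filter called 4 members (0.457% of all genes called), Sult2a1, Sult2a2, Sult2a5 and Sult3a1. All are sulfotransferases whose value in the library labelled CV male 3 was far from those of CV males 1 and 2. Leaving out CV male 1 gave 2 calls, Gstm4 and Gstm6 (2.38% of all genes called). Leaving out CV male 3 gave 0 (0.0339% of all genes called). A difference of the condition change between males and females was thus not detectable here for single members, with standard errors of the difference from 0.36 for Gstz1 to 2.10 for Sult3a1 on the log2 scale.

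**Figure D4:**
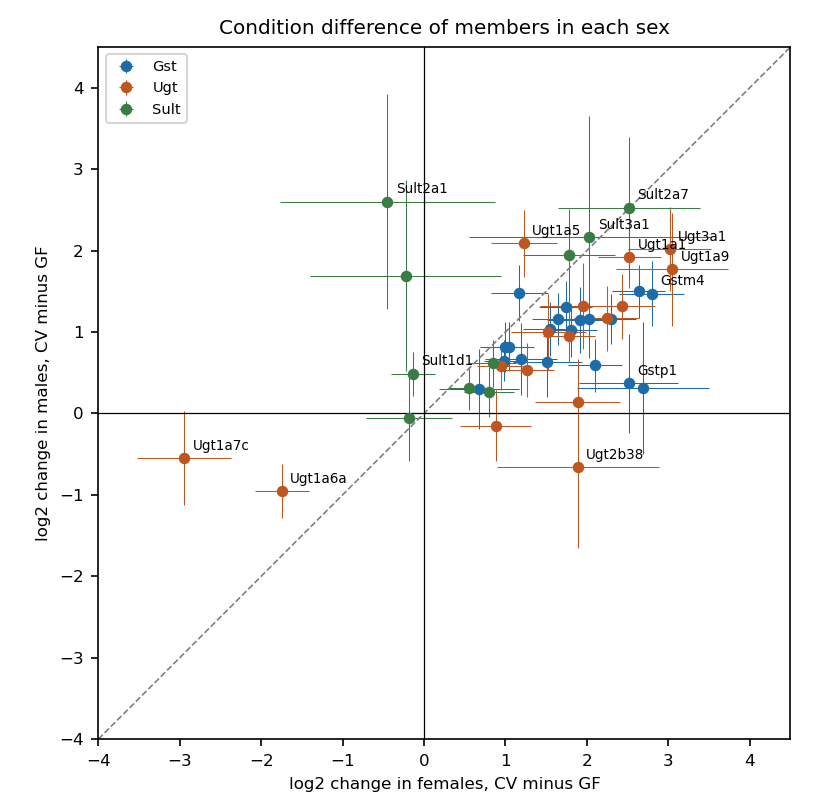
Each point is 1 of the 45 tested members, with its log2 change from GF to CV in females on the horizontal axis and in males on the vertical axis, bars of 1 SE from the fit, colours for the 3 families and a dashed line where the changes are equal. 37 members lie closer to 0 in males than in females, and Sult2a1 lies highest on the male axis at 2.60, a value that includes the library labelled CV male 3.

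A minority of members differed between males and females. Over both conditions 7 of 45 members were called, against 1.16% of all tested genes. Ugt2b1, Gstp1, Sult2a8 and Gstm6 were higher in males, and Ugt1a5, Sult3a1 and Sult2a2 were lower. In GF livers 6 were called, against 1.63% of all genes, namely Gstm6, Gstp1, Ugt2b1, Sult2a8 and Gstk1 higher and Ugt1a5 lower in males. The GF sexes also differed without overlap in the share of the abundant loci, at 42.7% to 52.6% in males and 59.3% to 70.3% in females. The same held for mitochondrial ribosomal RNA, at 9.36% to 11.5% and 13.4% to 16.4%. The part of these shares in the GF sex differences was not tested. In CV livers 0 were called by limma, against 0.0594% of all genes (0.0509% higher and 0.00849% lower in males). At an unadjusted p under 0.05 there were 10 members and 601 of all genes, and edgeR without a filter called 6 members (0.701% of all genes). Without the library labelled CV male 3 the calls were 11 over both conditions, 11 in GF and 5 in CV livers, with backgrounds of 1.72%, 2.29% and 0.653%, and the 5 in CV livers were Ugt2b1 and Gstp1 higher and Sult2a1, Sult2a2 and Sult3a1 lower in males. Other single libraries also set these counts: in GF livers 1 member was called without GF male 2 (0.415% of all genes), 2 without GF male 3 (0.637%), 2 without GF female 1 (0.69%) and 14 without GF female 2 (6.14%), and in CV livers 2 were called without CV male 1 (0.371% of all genes called).

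By overlap, all 3 GF males lay above all 3 GF females for 9 of 45 members, against 10.2% of all genes, and below for 6, against 8.46%. In CV livers 1 member lay above (6.57% of all genes) and 2 below (4.36%), and with CV males 1 and 2 only, 8 lay above (11.2%) and 11 below (7.98%).

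Gstp1, with the values given above, was among the male-higher genes. In GF livers its lowest male value was 3196 and its highest female value 1019, a difference of 3.48 ± 0.61 (SE, adjusted p = 0.00755) or 11.1-fold. In CV livers, males 1 and 2 lay above all females, while the library labelled CV male 3, at 2338, lay below them.

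Ugt2b1 read 1965, 3135 and 2378 in the 3 GF males, 391, 785 and 426 in the 3 GF females, 4634, 2502 and 926 in the 3 CV males and 781, 1165 and 894 in the 3 CV females. Ugt2b1 was higher in males by 1.75 ± 0.31 (SE, adjusted p = 0.0066) over both conditions, and again the library labelled CV male 3 read within the female range. Gstm6 read 496, 991 and 602 in the 3 GF males, 171, 250.0 and 128 in the 3 GF females, 1525, 882 and 750.4 in the 3 CV males and 745, 959 and 618 in the 3 CV females. For Gstm6 the GF males lay above the GF females, by 1.91 ± 0.33 (SE, adjusted p = 0.00705), and the CV sexes overlapped. Sult2a8, with the values given above, was 2.27-fold higher in males over both conditions (1.18 ± 0.22 (SE, adjusted p = 0.00862)), and all 3 CV males, the third included, lay above all CV females.

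Ugt1a5 read 34.9, 57.2 and 22.7 in the 3 GF males, 140.4, 242 and 107 in the 3 GF females, 294, 93.0 and 136 in the 3 CV males and 334, 455 and 311 in the 3 CV females. Ugt1a5 was lower in males by 3.13-fold over both conditions, with a difference of -1.65 ± 0.29 (SE, adjusted p = 0.00636), and the male and female groups did not overlap in GF or in CV livers. It was also among the genes that rose in CV livers, by 1.66 ± 0.29 (SE, adjusted p = 0.000138).

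Sult3a1 read 2.69, 1.33 and 2.83 in the 3 GF males, 133, 189 and 113 in the 3 GF females, 1.04, 0.795 and 808 in the 3 CV males and 281, 689 and 1019 in the 3 CV females. Sult3a1, an amine sulfotransferase known from female mouse liver, thus read near 0 in 5 libraries labelled male and at 113 or above in the other 7 libraries. In recovered reads, GF females exceeded GF males 59.9-fold (exact 95% interval 27.1 to 165) on 218 against 6 reads. CV females exceeded CV males 1 and 2 649-fold (222 to 3149) on 3385 against 3 reads. These intervals cover counting error only. Among females Sult3a1 was higher in CV than in GF livers without overlap, with a change of 2.03 ± 1.48 (SE, adjusted p = 0.255) in the fit of all libraries and a call in females once CV male 3 was left out (2.03, adjusted p = 0.000745).

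Sult2a1 read 0.895, 0 and 0 in the 3 GF males, 45.3, 45.2 and 38.3 in the 3 GF females, 0, 0.795 and 234 in the 3 CV males and 27.3, 24.2 and 45.2 in the 3 CV females. Sult2a2 read 0, 0 and 1.42 in the 3 GF males, 28.7, 29.3 and 40.3 in the 3 GF females, 0, 0 and 79.9 in the 3 CV males and 26.1, 26.2 and 30.7 in the 3 CV females. Sult2a1 and Sult2a2, hydroxysteroid sulfotransferases on chromosome 7, had the same split, with at most 1 read over the group in GF males and in CV males 1 and 2 together. For Sult2a2 the CV females were at least 29.1-fold higher than CV males 1 and 2, taking 3 reads over the group as the floor for its count of 0. In females neither passed the test between conditions, with changes of -0.45 ± 1.32 (SE, adjusted p = 0.788) and -0.22 ± 1.17 (SE, adjusted p = 0.884).

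**Figure D5:**
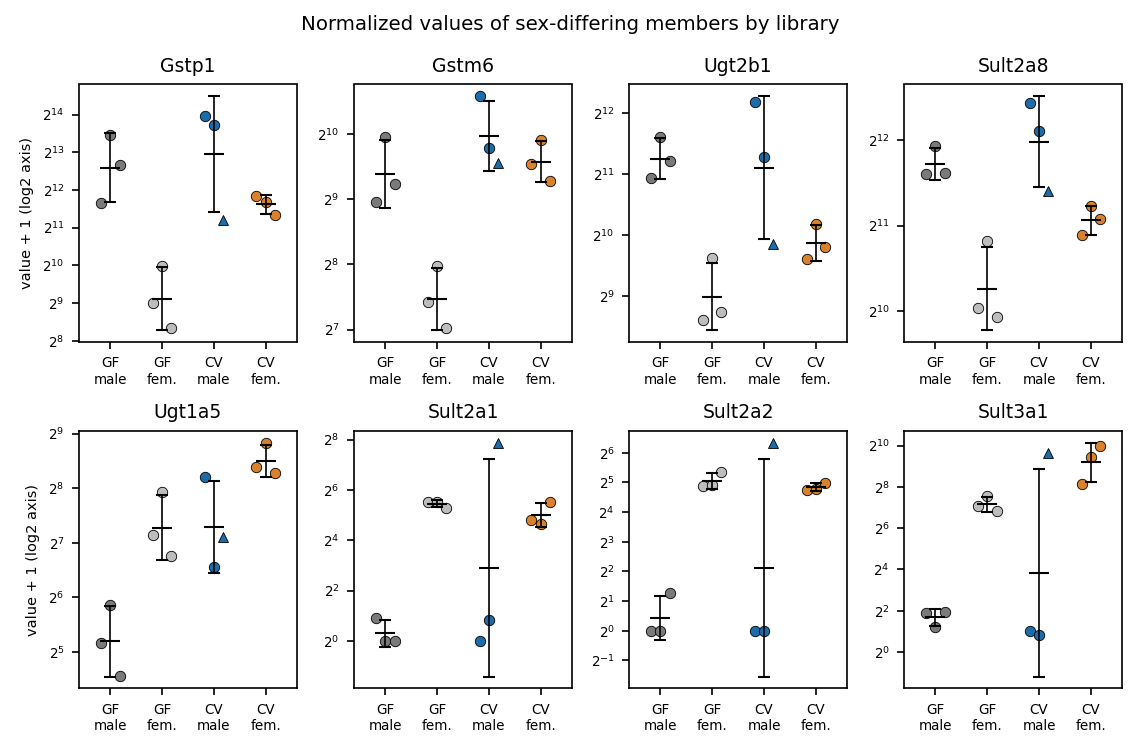
The vertical axis is the normalised value plus 1 on a log2 axis for 8 members in the 4 groups, 1 point per mouse, with the library labelled CV male 3 as a triangle and bars for the mean and SD of the log2 values of 3 mice. In Sult2a1, Sult2a2 and Sult3a1 the triangle lies far above the other 5 libraries labelled male. It lies within the female range in Sult3a1 and above every female library in Sult2a1 and Sult2a2. In Gstp1 and Ugt2b1 it lies at the female level.

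The 18 members below the filter were 3 Gst, 4 Ugt and 11 Sult genes. 6 had no read in any library (Gstt4, Sult1c1, Sult2a4, Sult4a1, Sult6b2 and Ugt2a2), which allows a share of up to 5.01e-05% of the reads in the smallest and 1.96e-05% in the largest library. Sult2a5 and Sult2a6 had 0 reads in GF males and in CV males 1 and 2, and up to 13.4 and 9.58 in GF females. Their highest values, 28.2 and 19.99, came from the library labelled CV male 3. Sult3a2 read at most 1.51 in GF libraries and 27.1 in CV females, which were at least 15.3-fold above CV males 1 and 2. Sult1e1, the estrogen sulfotransferase, read at most 11.5, in a GF female, and Ugt8a, which makes galactosylceramide, at most 2.83. Sult2b1, the cholesterol sulfotransferase, read at most 7.98. edgeR without a filter called Sult1e1 lower and Sult2a5, Sult2a6 and Sult3a2 higher in CV livers over both sexes, and edgeR with TMM factors and its own filter called Sult3a2 higher over both sexes and in females.

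The suppliers of the 3 donor molecules were read beside the members. Of genes for UDP-glucuronic acid supply and glucuronide release, 5 of 12 tested rose and 0 fell (median change 0.52), beside 32.3% of all genes higher and 28.7% lower, a share that also stands beside the counts of the lists that follow. Those with the smallest p-values were Galk1, galactokinase, and Pgm2, a phosphoglucomutase. Galk1 went from a median of 155 in GF to 673 in CV libraries, a change of 2.23 ± 0.23 (SE, adjusted p = 1.41e-06), and Pgm2 from a median of 378 in GF to 1649.6 in CV libraries, a change of 1.94 ± 0.23 (SE, adjusted p = 4.06e-06). Without CV male 3, 7 of this list rose and 1 fell, and with scaling to the reads outside the abundant loci, where 17.0% of all genes were higher and 42.7% lower, 3 rose and 1 fell.

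Of genes for sulfate and PAPS supply, 10 of 13 tested rose and 0 fell (median 1.33). Tst, the sulfurtransferase rhodanese, changed by 1.80 ± 0.21 (SE, adjusted p = 4.43e-06) and Suox, sulfite oxidase, by 1.80 ± 0.22 (SE, adjusted p = 6.02e-06). Of genes for glutathione supply and breakdown 10 of 14 rose and 0 fell (median 0.95). Gsr, glutathione reductase, changed by 1.44 ± 0.21 (SE, adjusted p = 2.82e-05) and Anpep, an aminopeptidase of the breakdown path, by 1.55 ± 0.18 (SE, adjusted p = 3.43e-06). Scaling to the reads outside the abundant loci left 8 and 6 higher in these lists, and gave 1 lower in the sulfate list.

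Enzymes of neighbouring pathways were mostly higher in CV livers. All 6 tested genes of a list of microsomal and other glutathione-linked enzymes rose (median 1.77), among them Gpx4, the lipid hydroperoxide peroxidase (2.05 ± 0.25 (SE, adjusted p = 5.43e-06)), and Glo1, glyoxalase (1.70 ± 0.19 (SE, adjusted p = 2.4e-06)). Of 12 tested genes for other conjugation and epoxide hydrolysis 9 rose and 0 fell (median 1.15). Ephx1, microsomal epoxide hydrolase, went from a median of 698 in GF to 2643 in CV libraries.

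Exporters of conjugates did not move as 1 group. Of 11 tested, 3 were higher and 4 lower in CV livers (median -0.68), and with scaling to the reads outside the abundant loci 0 were higher and 7 lower. Abcc10 changed by -2.17 ± 0.26 (SE, adjusted p = 4.96e-06) and Abcc5 by -1.92 ± 0.28 (SE, adjusted p = 2.68e-05), both of them multidrug resistance proteins, while Abcc3, the basolateral exporter of glucuronides, changed by 0.63 ± 0.25 (SE, adjusted p = 0.0358) and Abcb4, the phosphatidylcholine translocator, by 0.51 ± 0.18 (SE, adjusted p = 0.0223). The changes of Abcc3 and Abcb4 were 0.14 and 0.022 with that scaling and were not called.

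Of 27 tested regulators of the 3 families 7 were higher and 7 lower, a median change of 0.068. Cebpa, a hepatocyte transcription factor, changed by 1.55 ± 0.20 (SE, adjusted p = 8.07e-06) and Keap1, the inhibitor of NRF2, by 0.97 ± 0.17 (SE, adjusted p = 0.000161). Nfe2l2, which encodes NRF2, changed by -0.79 ± 0.17 (SE, adjusted p = 0.000997) and Ahr, the aryl hydrocarbon receptor, by -0.90 ± 0.17 (SE, adjusted p = 0.000276). Scaled to all recovered reads, which raised the median change of all genes to 0.63, 14 regulators were higher and 0 lower, and the changes of Nfe2l2 and Ahr, at -0.23 and -0.34, were not called. With scaling to the reads outside the abundant loci, where the median of all genes was -0.42, 3 were higher and 11 lower. The median change of the members was 1.87 with the first scaling and 0.84 with the second, with 39 and 24 of the 45 higher and 2 lower in each, beside 50.6% and 17.0% of all genes higher.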

How the data were processed

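Liver RNA was isolated with a Qiagen RNeasy kit and made into TruSeq stranded mRNA libraries per the labels. The submitters' processing notes name HTSeq 0.6.1p1, DESeq2 and GRCm38, while the aligner, the annotation and the handling of reads in shared exons are not given in the sources used here. The paper supplied with the series describes another experiment, so no method was taken from it. The deposited values are a normalised signal, gene counts scaled by the authors with 1 factor per library. Each value gave a whole number of reads (tolerance 0.01 reads, 100% of values), and the factors equalled median-of-ratios factors taken over 12512 genes that had reads throughout, so read counts were recovered. No pair of the 66 pairs of libraries agreed within counting noise (lowest chi-square per degree of freedom 13.3).

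Genes with a mean value of at least 10 (11782) were tested with limma 3.58.1 in R 4.3.3 on log2(value + 1), which understates changes of low genes, with 1 mean per group, all 12 libraries in 1 fit, a variance trend, Benjamini-Hochberg adjustment over all tested genes and a threshold of 0.05. Groups came from the sample titles. Ratios on recovered reads have exact 95% intervals, and 3 reads serve as the limit that a count of 0 allows. Neither covers more than counting error, since sequencing reads are not independent molecules. Coordinates and lengths came from GENCODE for GRCm38, which listed 40254 identifiers (97.9%), and promoters from RefSeq. Alternatives included edgeR 4.0.16 and DESeq2 1.42.0 on the recovered reads, other scalings, pseudocounts and filters, single libraries left out and a replicate block.

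The members, the lists of other genes and the tests were chosen with earlier results of these data known. Values in every group are given for the 4 called members with the smallest p-values per family and direction between conditions, for the 4 per direction between the sexes over both conditions and in each condition, and for the 3 with the highest level per kilobase in each family. Of each list of other genes, up to 2 called genes per direction are named, and 1 gene that this rule names is not reported here. Further members are given by counts and ranges or as single examples picked after their values were seen. The labels do not pair mice of different groups by number. Same-numbered mice deviated together in 5 of 18 pairs (r over 0.1, from -0.23 to 0.40), so the numbers were not treated as pairs. Between CV males and CV females all 3 same-numbered pairs correlated weakly (0.19, 0.12 and 0.17), and the block is also reported there. Differently numbered mice reached an r of 0.39 (GF male 1 and GF female 3), so these values do not establish pairing.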

Additional observations from a re-analysis of the deposited data

Results flagged for a closer look

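Of 56 measures examined in groups of 6 libraries, 2 held a library far from the other 5 by Dixon's test at its 95% critical value, and chance alone flags about 1 group in 20. Sult1d1 in CV livers had 1 such library, the one labelled CV male 3, at a normalised value of 975. Ugt2b36 in CV livers had 1, CV male 1, at 6398.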

How the results depend on the processing

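With the mitochondrial ribosomal RNA share as a covariate the counts of members called fell to 0 between conditions, in all and in males, in females and in each family, and to 0 between the sexes in GF livers, and no gene of the whole table was called in that fit between conditions over both sexes. That share did not overlap between the conditions, so the fit cannot separate it from condition. The covariate turned the condition changes of Gstp1 to -0.55, Ugt1a1 to -0.30, Ugt2b1 to -1.62, Ugt2b36 to -0.46 and Ugt3a1 to -0.51, and also those of Gsta2, Gstm3, Gstp2, Ugt1a6b, Ugt1a9, Ugt2b35 and Ugt2b38. Scaling to reads outside the abundant loci turned Sult1a1 to -0.057, Sult1d1 to -0.31 and Ugt2b1 to -0.12, and removal of the length and GC trend turned Sult1a1 to -0.051. The male count of 19 was 12 with no filter (12.5% of all genes called), 29 scaled to all reads (30.6%), 31 in edgeR without a filter (18.2%) and 7 at adjusted p under 0.01. The Sult count of 4 was 2 at a mean value of at least 50 (67.8% of all genes called), where Sult1c2 and Sult2a7 were no longer tested. It was also 2 with scaling outside the abundant loci (59.7%). It was 7 scaled to all reads (63.9%), in edgeR with TMM or median-of-ratios factors (60.8% and 61.0%) and in DESeq2 (36.8%). In edgeR without a filter it was 11 (37.8%), including Sult1e1 (lower), Sult2a5, Sult2a6 and Sult3a2, which the main filter had left out. That last fit called 4 members in the interaction (0.457% of all genes called) and 12 between the sexes over both conditions (1.52%). It called 13 between the sexes in GF livers (2.46%) and 6 in CV livers (0.701%). Between the sexes in GF livers the count was 23 scaled to all reads (11.8% of all genes), and in CV livers it was 1 with voom (0.199%). At adjusted p under 0.01 the count between the sexes was 2 in GF livers and 4 over both conditions. The share of all genes called at that threshold is not given here. Apart from genes that a filter removed or let in, the cause of these shifts was not tested. Leaving out 1 library at a time gave 33 to 36 members called over both sexes (Gst 16 to 18, Ugt 13 to 14, Sult 3 to 5), 7 to 21 in males, 26 to 38 in females, 0 to 2 in the interaction, and 5 to 11, 1 to 14 and 0 to 5 between the sexes over both conditions, in GF and in CV livers. The share of all genes called moved as well, and in males it was 13.6% without GF male 1 and 31.2% without GF male 2. The replicate block gave 10 members called between the sexes in GF livers in place of 6 (2.38% of all genes called), and changed no other count by over 1.5 times. The labels do not pair the mice by number. Between CV males and CV females, where same-numbered mice correlated weakly, the block gave 0 (0.0679% of all genes called). It also gave 0 with the length and GC trend removed (0.0426%), a combination chosen after seeing the data. Values of members with a mean under 10 rest on few reads.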
